A study of Mus musculus with 9 samples.

Results

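The genes described here are 10 immediate early genes of the mouse: the AP-1 subunit genes Fos, Fosb, Fosl2, Jun, Junb and Jund, the transcription factor gene Egr1, the nuclear regulator gene Ier2, and the feedback genes Dusp1 and Zfp36. They were chosen by name, and every probe set annotated to 1 of them was taken, which gave 11 probe sets, with 2 for Jun and 1 for each other gene. The array table names 12393 genes, of which 8959 were bright enough to be tested, and 9 of the 10 immediate early genes were among these. Fosb was not.

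The study measured RNA on Affymetrix mouse arrays, with 3 arrays for each of 3 kinds of cell. Granulocyte-macrophage progenitors (GMP) are marrow cells already committed to make granulocytes and macrophages, and here they came from normal mice. L-GMP are cells resembling GMP that were sorted from the marrow of leukemic mice, whose disease is caused by MLL-AF9, the oncogene that joins Kmt2a to Mllt3. The L-GMP-derived arrays were read as cells grown in culture from L-GMP, and so descend from MLL-AF9 cells as well. Their titles are only a code and their source label reads L-GMP, so this reading was reached by elimination from the design text and limits each statement about them. No label used here states strain, age or culture conditions. The GMP array that has no number in its title is called replicate 1. Whether replicate arrays stem from different animals or cultures is unstated, so p-values describe array-to-array spread, part of which may be technical, and precision is limited by having 3 arrays a group.

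Immediate early genes are transcribed within minutes of a stimulus from factors that are already present in the cell, such as serum response factor and CREB, and their mRNAs decay quickly. Fos and Jun proteins pair to form AP-1, a dimer that binds DNA and drives programs of growth, differentiation and stress response, and in the myeloid lineage AP-1 and Egr1 are known for their part in monocyte and macrophage differentiation. The products of Dusp1 and Zfp36 close the loop: Dusp1 inactivates MAP kinases, and Zfp36 binds AU-rich elements and hastens the decay of mRNAs that carry them. The same genes are also induced by cellular stress.

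The promoters of Fos, Jun, Dusp1 and Zfp36 are shown as 4 examples. These genes had signals below those of GMP replicates 2 and 3 on the L-GMP-derived arrays and on the first GMP array. Other members, such as Egr1, shared this, but no window of Egr1 was among those used. Each is the RefSeq window of 300 bases, 250 before and 50 from the start of transcription, in the GRCm38.p6 assembly. They lie at chr12:85473640-85473939 on the plus strand for Fos, and at chr4:95052173-95052472 for Jun, chr17:26508423-26508722 for Dusp1 and chr7:28379179-28379478 for Zfp36, all on the minus strand. Capitals mark the CREB site TGACGTCA, its core TGACG, the Egr site GCGNGGGCG, the CArG box that serum response factor binds and the TATA box TATAAA, each searched on both strands.
Fos: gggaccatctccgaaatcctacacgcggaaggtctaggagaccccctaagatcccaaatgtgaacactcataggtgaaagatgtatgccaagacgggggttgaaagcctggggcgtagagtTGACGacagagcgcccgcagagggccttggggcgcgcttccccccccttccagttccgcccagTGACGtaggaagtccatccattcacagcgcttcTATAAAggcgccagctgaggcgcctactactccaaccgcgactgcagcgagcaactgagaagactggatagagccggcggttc
Jun: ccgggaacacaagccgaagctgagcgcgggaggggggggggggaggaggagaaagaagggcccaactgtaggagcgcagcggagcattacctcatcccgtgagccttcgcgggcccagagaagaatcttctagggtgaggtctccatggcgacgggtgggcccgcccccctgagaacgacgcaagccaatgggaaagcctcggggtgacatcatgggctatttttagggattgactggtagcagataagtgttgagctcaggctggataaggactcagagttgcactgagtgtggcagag
Dusp1: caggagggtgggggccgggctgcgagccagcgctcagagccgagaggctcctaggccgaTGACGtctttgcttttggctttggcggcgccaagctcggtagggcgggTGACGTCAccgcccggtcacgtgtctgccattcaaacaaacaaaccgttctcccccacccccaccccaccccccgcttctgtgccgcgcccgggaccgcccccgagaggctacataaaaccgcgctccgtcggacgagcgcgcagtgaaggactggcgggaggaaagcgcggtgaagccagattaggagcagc
Zfp36: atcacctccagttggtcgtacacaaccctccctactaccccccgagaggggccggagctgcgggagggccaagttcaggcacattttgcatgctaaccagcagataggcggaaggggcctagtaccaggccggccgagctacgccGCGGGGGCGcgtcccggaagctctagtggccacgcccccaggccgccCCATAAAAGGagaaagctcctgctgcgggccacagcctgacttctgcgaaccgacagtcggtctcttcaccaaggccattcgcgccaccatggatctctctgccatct
Fos held TGACG at -129 and -66 and TATAAA at -33, counted from the start site. Dusp1 held the full TGACGTCA at -143, within which TGACG reads on both strands, and a separate TGACG at -191. Zfp36 held a CArG box at -58 and GCGNGGGCG at -105, and none of the searched motifs was in the Jun window.

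RefSeq windows were used for 8 of the 10 genes, all but Egr1 and Ier2, so the counts say nothing of those genes. The windows of a whole chromosome had been left out beforehand, for members and background alike. TGACG was in 4 of these 8 windows (Fos, Fosb, Junb and Dusp1), against 20.8% of the 32851 windows of that length that were kept. TGACGTCA was in 1 of 8, against 1.79%, the CArG box in 1 of 8, against 1.63%, and TATAAA in 2 of 8 (Fos and Junb), against 13.6%. GCGNGGGCG was in 3 of 8 (Fosl2, Fosb and Zfp36), against 5.55%, and the AP-1 site TGANTCA in 0 of 8, against 7.81%. A match describes these letters only and shows no binding.

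The arrays agreed closely over the table as a whole, yet some stood apart from their group. Correlations of log2 signal between arrays of 1 group lay from 0.958 to 0.991. GMP replicate 1 was at least 2-fold below both other GMP arrays for 31 of the 8959 tested genes (0.346%), and 7 of the 9 tested immediate early genes were among the 31. L-GMP-derived replicate 1 was at least 2-fold below its fellows for 91 genes and above them for 85, none of them an immediate early gene of this set. L-GMP replicate 2 was so far below for 14 genes, 4 of them members. Results are given with all arrays, and the counts of calls also without GMP replicate 1 where leaving it out changed them. Of 10 GMP markers, all 10 were above the brightness filter on every GMP and L-GMP array and 8 on every L-GMP-derived array. There, Kit (67.0 to 110.2) and Cd34 (18.7 to 55.6) lay below it. Kit, Cd34, Mpo and Csf1r fell in L-GMP-derived cells against GMP, Mpo by 11.9-fold and Csf1r by 11.5-fold, to signals of 3581, 425 and 319 for Mpo and 820.1, 383 and 402 for Csf1r. The other 6 markers were not called there. In L-GMP against GMP, 4 of the 10 were lower and 1 higher, beside 12.8% and 13.1% of all tested genes. Without GMP replicate 1 these counts were 3 and 1. Cebpa read 419, 280 and 317 in L-GMP, against 955, 1206 and 1347 in GMP.

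Signals are in the authors' arbitrary linear units. Values below 62.4, the 25th percentile of the whole table, were treated as that floor before log2 was taken, so a fold against a group with an array at the floor is a lower bound, written "at least". The floor also removes spread. In L-GMP-derived cells the SD of log2 signal was 0 for Fos, Jun and Egr1 and 0.13 for Dusp1. This lowers the shared spread, so the SEs and p-values of these genes can be too small. A level of 1 gene cannot be set against that of another, because probe sets differ in brightness. In RNA from pooled cells, fewer expressing cells and less RNA per cell cannot be told apart.

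Among the Fos subunits, Fos was bright in both fresh populations and at background in the cultured cells, Fosb was seen on only 2 arrays, and Fosl2 was level throughout. The Fos signal was 1307, 6152 and 5691 on GMP replicates 1 to 3, 3037, 869 and 3985 on L-GMP replicates 1 to 3, and 2.40, 2.27 and -10.1 on L-GMP-derived replicates 1 to 3. GMP and L-GMP overlapped, while all 3 L-GMP-derived arrays lay at the floor, below every other array. Fosb, which encodes a Fos protein with a known role in the nervous system, had signals of 62.3, 313 and 195 on the GMP arrays, 45.2, 36.5 and 57.0 on the L-GMP arrays and 62.3, 42.8 and 42.1 on the L-GMP-derived arrays. Only GMP replicates 2 and 3 rose above the filter of 111, so Fosb was left untested. The L-GMP arrays lay below the GMP arrays but at the floor, as did GMP replicate 1, so no fold is given, and without that filter the difference did not pass (adjusted p = 0.169, limma). Fosl2, whose product Fra-2 is a Fos relative, read 230.4, 251 and 198 in GMP, 210.0, 170.3 and 218 in L-GMP and 213, 234 and 209 in L-GMP-derived cells. The 3 groups overlapped for Fosl2, and its brightest GMP array was only 1.27 times its dimmest.

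Among the Jun subunits, Jun varied most between arrays, Junb was below the filter in the cultured cells, and Jund stayed bright in all 3 groups. Jun, the main partner of Fos, gave 198, 3012 and 2642.5 in GMP, 738, 242 and 729.8 in L-GMP and 49.0, 24.8 and 11.1 in L-GMP-derived cells. GMP replicates 2 and 3 were the highest of the 9 arrays, GMP replicate 1 lay below all L-GMP arrays, and every L-GMP-derived array was at the floor. The other Jun probe set showed 84.4, 1060.2 and 782 in GMP, 285, 34.6 and 429.7 in L-GMP and 2.21, -5.48 and 3.77 in L-GMP-derived cells. It ordered the arrays of GMP in the same way and likewise put all L-GMP-derived arrays at the floor. Junb, which encodes a Jun protein that can oppose Jun in growth control, read 133, 286 and 242 in GMP, 183, 129 and 117 in L-GMP and 97.8, 74.7 and 76.7 in L-GMP-derived cells, whose arrays lay below all others. Jund, the subunit known for steady expression in resting cells, read 1856, 6604 and 6216 in GMP, 3861, 2578 and 4514 in L-GMP and 1944, 2599.85 and 2906 in L-GMP-derived cells. It stayed far above the filter on all 9 arrays, and the 3 groups overlapped.

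Egr1, a zinc finger factor, moved over the widest range within GMP, with signals of 146, 4026 and 2761. It gave 415, 205 and 529 in L-GMP, and 48.9, 35.4 and 30.8 in L-GMP-derived cells, all at the floor. Again GMP replicate 1 lay below the L-GMP arrays and replicates 2 and 3 far above them. Ier2, whose product is a small nuclear protein, read 220.1, 811 and 532 in GMP, 695, 453 and 767 in L-GMP and 368, 273 and 242 in L-GMP-derived cells. Ier2 was the only member whose mean was highest in L-GMP, and the L-GMP-derived arrays lay below the L-GMP arrays but among the GMP arrays.

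Both feedback genes followed Jun and Egr1. Dusp1 gave 369.6, 3617 and 3031 in GMP, 657, 253 and 1054 in L-GMP and 52.4, 50.1 and 73.2 in L-GMP-derived cells, of which 2 were at the floor. The L-GMP-derived arrays lay below all others, and GMP replicate 1 fell among the L-GMP arrays. Zfp36 gave 98.4, 1433 and 923 in GMP, 473, 272 and 725 in L-GMP and 144, 80.8 and 73.1 in L-GMP-derived cells. Its GMP replicate 1 was lower than 1 of the L-GMP-derived arrays, so those groups overlapped, while all L-GMP arrays were above all L-GMP-derived arrays.

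**Figure D1:**
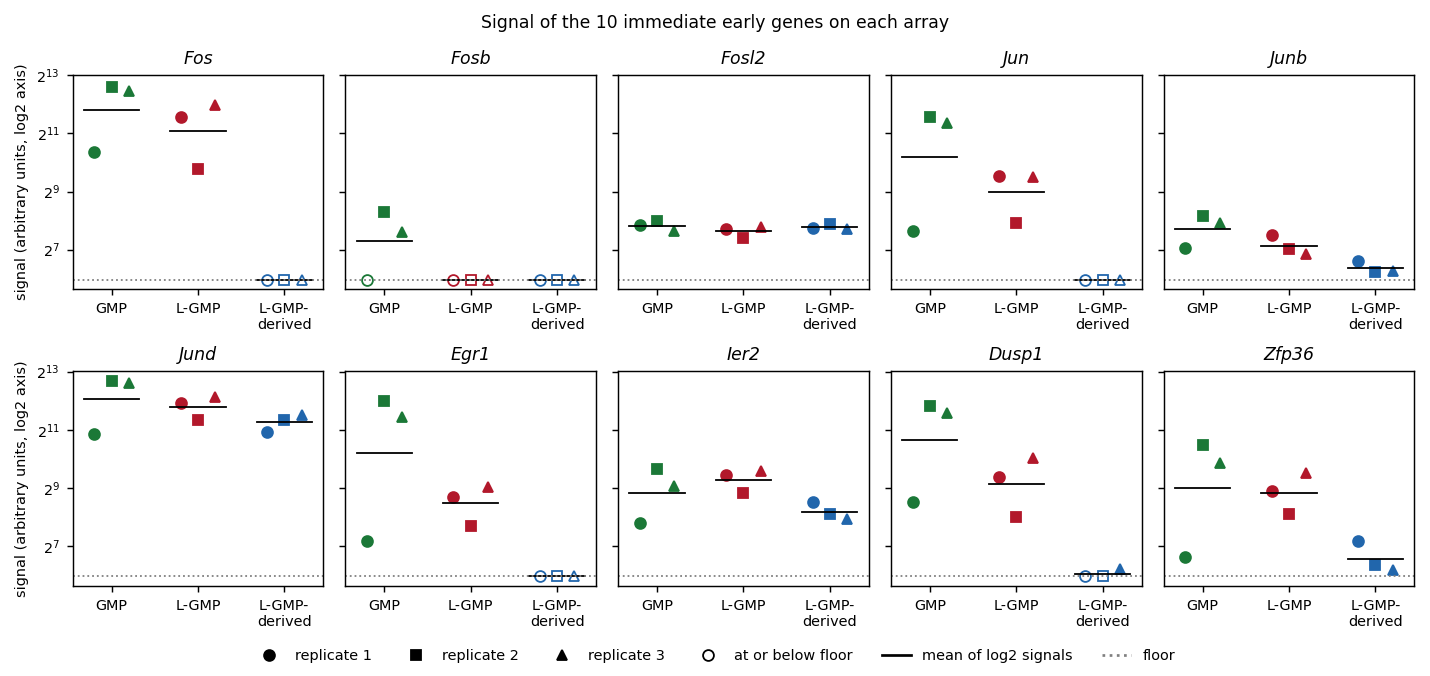
Signal of each of the 10 genes on the 9 arrays, on a log2 axis in arbitrary units, with 3 arrays per group, marker shapes for replicates, black bars for the mean of log2 signals and open symbols for arrays at or below the floor of 62.4 (dotted line). GMP replicate 1 (circle) sits apart below replicates 2 and 3 for most genes, Fosl2 is level, and Fos, Jun and Egr1 lie at the floor on all 3 L-GMP-derived arrays.

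Most of these genes had a wide spread within GMP, with replicate 1 below replicates 2 and 3. GMP replicate 2 was the highest GMP array for 10 of the 10 genes and replicate 1 the lowest for 9, Fosl2 being the exception. Egr1 was 18.9-fold lower on replicate 1 than on the lower of the other arrays, Jun 13.3-fold, Zfp36 9.38-fold, Dusp1 8.20-fold, Fos 4.36-fold, Jund 3.35-fold and Ier2 2.42-fold. The SD of log2 signal within GMP was 2.62 for Egr1, 2.21 for Jun, 2.07 for Zfp36, 1.83 for Dusp1 and 1.26 for Fos, against a median of 0.11 over all tested genes. Each of these 5 SDs exceeded that of at least 99.8% of the tested genes, whereas the SD of Fosl2 (0.18) exceeded that of 75.1%. GMP replicate 1 lay below all L-GMP arrays for 5 of the 10 genes, and replicates 2 and 3 lay above all L-GMP arrays for 8 of the 10, Fosl2 and Ier2 being the exceptions.

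**Figure D2:**
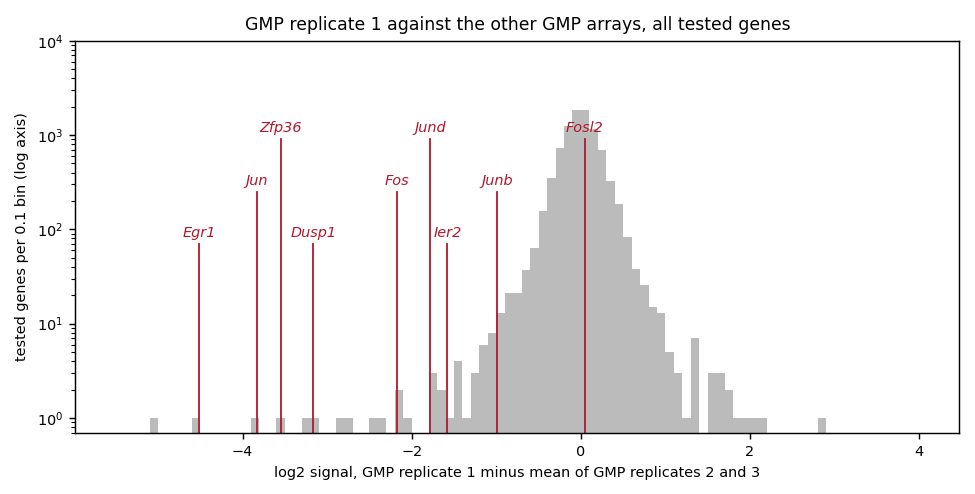
Histogram (grey, log axis) of the difference in log2 signal between GMP replicate 1 and the mean of GMP replicates 2 and 3 over the 8959 tested genes in bins of 0.1, with red lines for the 9 tested immediate early genes, whose heights carry no value. Egr1, Jun, Zfp36 and Dusp1 lie at the far left, and Fosl2 lies within the bulk near 0.

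The other genes low on that array, named here after their values were seen, included further stress and immediate early genes. Besides the 7 members, the 31 genes held 5 from a list of other immediate early genes (Ppp1r15a, Klf6, Rhob, Klf2 and Ier5). They also held the heat shock genes Hspa1a and Hspa1b, the chemokine genes Cxcl2 and Ccl4, Dusp2 and the monocyte marker gene Cd14. The remaining 13 were in no list used here. Cd14 read 67.1, 203 and 164 on GMP replicates 1 to 3. Cxcl2, which encodes a neutrophil attractant, read 45.2, 2505 and 1670.0 on GMP replicates 1 to 3, and Hspa1a, an inducible chaperone gene, read 1615, 6518 and 6423. In L-GMP a milder split of the same kind was seen: replicate 2 was the lowest L-GMP array for 9 of the 10 genes and replicate 3 the highest for 8. Replicate 2 was at least 2-fold below the others for 14 tested genes, among them Fos (3.49-fold), Jun (3.02-fold), Dusp1 (2.60-fold) and Egr1.

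Some other measures also differed on these arrays while others did not, and their part in the result was not tested. The summed signal of 9 neutrophil markers was 22689 on GMP replicate 1, against 9056 and 12971 on replicates 2 and 3. In L-GMP it went the other way, being lowest on replicate 2, at 17928, against 36735 and 22891. The GMP marker sum was alike on the 3 GMP arrays, from 45235 to 46669, and the monocyte and macrophage marker sum lay from 4903 to 5656. On L-GMP replicate 2 the GMP marker sum was 33067, against 40470 and 37187 on L-GMP replicates 1 and 3. The beta-actin control ratio (3′ over 5′ probes), a measure of RNA quality, was 7.01 on GMP replicate 1, against 6.99 on replicate 2 and 8.12 on replicate 3. That of the Gapdh control was 8.77, against 7.72 and 7.08. On L-GMP replicate 2 the beta-actin ratio was 5.56, against 5.09 and 4.87 on L-GMP replicates 1 and 3. The Gapdh ratio there was 6.50, against 6.17 and 11.6.

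Setting L-GMP against GMP asks how leukemic cells differ from the normal progenitors they resemble. With all 9 arrays, 0 of the 9 tested immediate early genes passed the test in either direction, against 12.8% of all tested genes called lower and 13.1% called higher. Of the 9 genes, 8 had a lower mean log2 signal in L-GMP, with a median log2 difference of -0.58 against -0.0075 over all tested genes. At an unadjusted p under 0.05 the count was also 0. In 0 of the 9 were the L-GMP arrays all below the GMP arrays, against 23.8% of all genes. The widest differences were those of Egr1 (383 ± 164 against 2311 ± 1979; SD, n = 3) and Dusp1 (655 ± 401 against 2339 ± 1731). On the log2 scale these were -1.72 ± 0.98 (SE; adjusted p = 0.231, limma with Benjamini-Hochberg adjustment) and -1.51 ± 0.76 (adjusted p = 0.18). Jun differed by -1.20 ± 0.86 (adjusted p = 0.353) and Fos by -0.71 ± 0.62 (adjusted p = 0.455). Ier2 had the opposite sign, at 0.45 ± 0.40 (adjusted p = 0.462).

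This outcome rested on GMP replicate 1. Without that array, 6 of the 9 genes were lower in L-GMP, against 10% of all tested genes: Egr1 by 9.38-fold (adjusted p = 2.91e-04, limma), Dusp1 by 5.92-fold, Jun by 5.56-fold, Zfp36 by 2.53-fold (adjusted p = 0.0499), Junb by 1.88-fold and Jund by 1.80-fold. Fos did not pass (2.70-fold lower, adjusted p = 0.0799), nor did Fosl2 or Ier2, whose log2 difference became -0.078. Leaving out any other single array gave 0 calls. GMP replicate 1 stands apart through these same genes, being low for 7 of the 9. Its omission therefore raises their GMP means and narrows their spread more than for most genes. The shares of all tested genes in fits without it, here and below, are no like reference, and these counts are no independent support.

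Setting L-GMP-derived cells against GMP asks how far the cultured cells have moved from the normal progenitor. Here 5 of the 9 tested genes fell and 0 rose, against 10.6% of all tested genes called lower and 13.4% called higher. The fallen genes were Fos, Jun and Junb among the AP-1 subunits, Egr1, and the MAP kinase phosphatase gene Dusp1. The L-GMP-derived arrays were all below the GMP arrays for the same 5 genes, against 19.1% of all genes. The median log2 difference of the 9 genes was -2.42, against 0.0044 over all tested genes.

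Fos dropped at least 57.3-fold (-1.80 ± 7.17 against 4383 ± 2674; SD, n = 3), with an adjusted p of 9.43e-05 in limma. Dusp1 fell at least 24.2-fold (adjusted p = 0.00168), Egr1 at least 18.8-fold (adjusted p = 0.0101) and Jun at least 18.6-fold (adjusted p = 0.00549). The other Jun probe set also passed, at least 6.60-fold lower (adjusted p = 0.0487). Junb fell 2.54-fold, from 220.3 ± 79.0 to 83.1 ± 12.8 (adjusted p = 0.00552). Zfp36 missed the threshold at 5.34-fold lower (adjusted p = 0.0535), as did Jund at 1.73-fold (0.199) and Ier2 at 1.58-fold (0.27), and the log2 difference of Fosl2 was -0.045 ± 0.14. Without GMP replicate 1, Zfp36 (12.1-fold), Jund (2.62-fold) and Ier2 (2.27-fold) passed too, making 8 of 9, against 8.61% of all tested genes. Fos was then at least 94.7-fold lower, Egr1 at least 53.4-fold, Dusp1 at least 50.3-fold and Jun at least 45.2-fold. Without GMP replicate 3 the call of Egr1 was lost (adjusted p = 0.0514), and without L-GMP-derived replicate 1 Zfp36 passed (adjusted p = 0.0434).

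**Figure D3:**
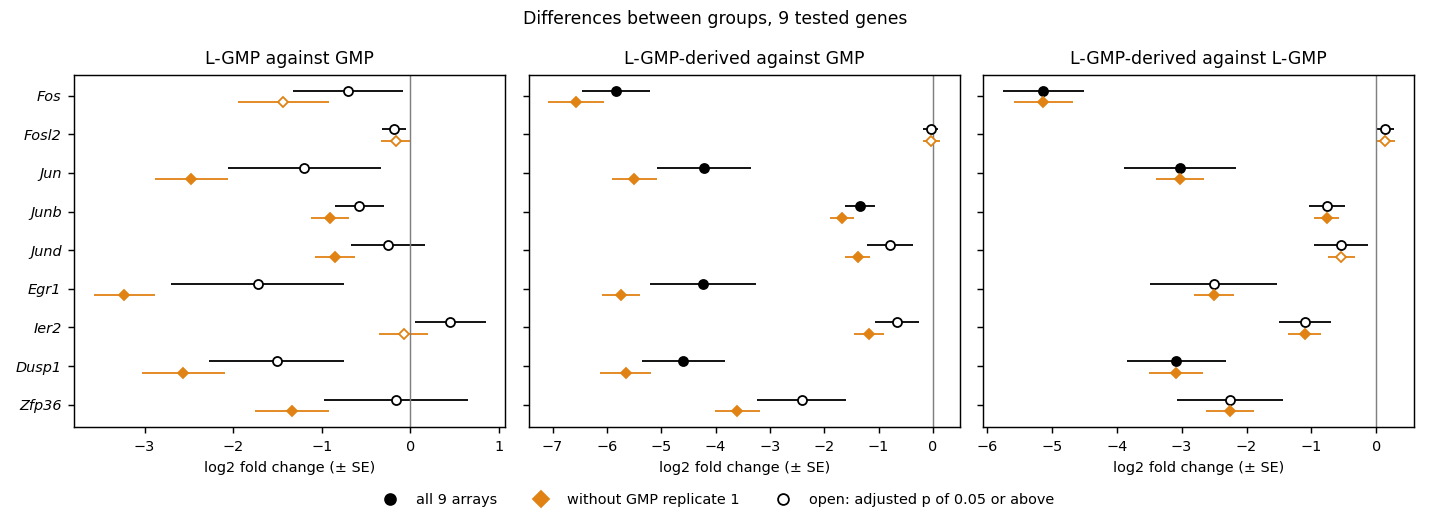
Log2 fold change ± SE of the 9 tested genes in the 3 comparisons, from limma on all 9 arrays (black circles) and without GMP replicate 1 (orange diamonds), with filled symbols for an adjusted p under 0.05. In L-GMP against GMP no circle is filled and 6 diamonds are, and the bars of most genes are shorter without that array.

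Setting L-GMP-derived cells against L-GMP asks what changed when leukemic cells were propagated in culture. It does not use the GMP signals themselves, although GMP arrays enter the shared estimate of the spread. Here 3 of the 9 tested genes fell (Fos, Jun and Dusp1) and 0 rose, against 14.1% of all tested genes called lower and 16.6% called higher. For 7 of the 9, Jund and Fosl2 being the exceptions, all L-GMP-derived arrays lay below all L-GMP arrays, against 20.4% of all genes. The median log2 difference of the 9 genes was -2.26, against -0.0042 over all tested genes.

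Fos was at least 35.1-fold lower (adjusted p = 1.81e-04, limma), Dusp1 at least 8.50-fold lower (adjusted p = 0.0115) and Jun at least 8.12-fold lower (adjusted p = 0.023). The other Jun probe set did not pass (adjusted p = 0.195). Leaving out L-GMP replicate 1, L-GMP replicate 3, L-GMP-derived replicate 2 or L-GMP-derived replicate 3 ended the call of Jun, with adjusted p from 0.0582 to 0.0762. Junb (1.70-fold lower), Egr1 (at least 5.69-fold), Ier2 (2.15-fold) and Zfp36 (4.78-fold) had adjusted p from 0.0601 to 0.079. All 4 of these passed when GMP replicate 1 was left out of the shared spread, making 7 of 9 against 13.8% of all tested genes, and also when only the 6 arrays of both groups were fitted. The differences themselves are the same in those fits. Without L-GMP-derived replicate 1 the count was 6, and without GMP replicate 2 it was 5.

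The same 3 GMP arrays serve as control in both comparisons with GMP, so those values are not independent. Markers of other cells also differed between the groups, and their part in these results was not tested. The neutrophil marker sum lay from 975 to 8499 on the L-GMP-derived arrays, against 17928 to 36735 in L-GMP and 9056 to 22689 in GMP. Of these 9 markers, 4 or 5 were above the filter on the L-GMP-derived arrays, 6 on the L-GMP arrays and 5 or 6 on the GMP arrays. Of the 6 tested, 1 was called lower in L-GMP-derived cells against GMP and 3 against L-GMP, and 0 were called higher. The sum of 7 mast cell, eosinophil and basophil markers lay from 297 to 403, against 3656 to 5850.1 and 1687 to 1908. The monocyte and macrophage sum was also lower there, from 3124 to 3823, against 5332 to 6226 in L-GMP and 4903 to 5656 in GMP. Its genes did not all move that way. Against GMP, 1 of the 5 tested was called lower and 2 higher, or 1 and 1 without GMP replicate 1. Against L-GMP, 2 were lower and 0 higher. The shares of all tested genes are those given above. Adgre1 read 402, 1253 and 1297 in L-GMP-derived cells, against 387, 361 and 376 in GMP. Ccr2 read 2363, 1011 and 859, against 3791, 3442 and 3454. The erythroid and megakaryocyte sum was lower too, from 1113 to 1184 against 1249 to 1628 on the other arrays. Of its 4 tested genes, 1 was called lower and 0 higher against GMP, and likewise against L-GMP. Itga2b read 90.5, 83.4 and 79.9 in L-GMP-derived cells, against 156, 288 and 432 in L-GMP and 263, 387 and 372 in GMP. Gata1 read 178, 133 and 142, against 157, 122 and 154 in L-GMP and 185, 172 and 168 in GMP. The T and NK cell sum was higher, from 1421 to 1584 against 1094 to 1275 on the other arrays, and Thy1 read 122 to 531 against 23.5 to 48.1. The list as a whole did not rise. Of its 5 tested genes, 1 was called higher and 0 lower against GMP, and 1 higher and 1 lower against L-GMP. Cd3e read 181, 203 and 164 in L-GMP-derived cells, against 303, 272 and 270 in L-GMP. The B cell sums of the groups overlapped, from 1531 to 2011 over the 9 arrays. The beta-actin 3′ to 5′ ratio was 6.93 to 7.18 in L-GMP-derived cells, 4.87 to 5.56 in L-GMP and 6.99 to 8.12 in GMP. That of the Gapdh control overlapped between groups, at 5.86 to 9.22, 6.17 to 11.6 and 7.08 to 8.77.

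Other immediate early genes fell in part, with Klf4 showing the widest difference from GMP. Of 33 listed genes 23 were tested, and the shares of all tested genes called are those given above for each comparison. In L-GMP against GMP 4 fell and 2 rose, in L-GMP-derived cells against GMP 9 fell and 0 rose, and against L-GMP 8 fell and 2 rose. Their median log2 differences were -0.027, -0.21 and -0.23. Klf4, a factor of monocyte differentiation, read 861, 1895 and 1652 in GMP, 234, 116 and 278 in L-GMP, and 75.4, 24.0 and 36.6 in L-GMP-derived cells. It was the gene of this list with the largest fall from GMP, 7.10-fold in L-GMP (adjusted p = 1.99e-04, limma) and at least 20.9-fold in L-GMP-derived cells (adjusted p = 1.05e-05), and its groups did not overlap. Ppp1r15a, a stress-induced phosphatase subunit gene, fell at least 3.50-fold in L-GMP, and Klf6, a zinc finger factor gene, fell 2.29-fold. For both, GMP replicate 1 lay among the L-GMP arrays. Its Ppp1r15a signal was 98.4, against 82.9, 58.9 and 118 in L-GMP, and its Klf6 signal 312, against 337, 281 and 276. Rhob, which encodes a small GTPase, fell 3.62-fold in L-GMP-derived cells against GMP and 2.78-fold against L-GMP, and Klf2 fell 3.23-fold against L-GMP. Without GMP replicate 1 the numbers that fell were 5, 11 and 9.

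Calls among the partners and regulators of AP-1 stood beside 12.8% of all tested genes lower and 13.1% higher in L-GMP against GMP, 10.6% and 13.4% in L-GMP-derived cells against GMP, and 14.1% and 16.6% against L-GMP. Of 7 tested genes for other AP-1 and bZIP partners, only Mafg, a small Maf gene, passed: it rose 2.59-fold in L-GMP (adjusted p = 4.07e-04, limma) and 2.27-fold in L-GMP-derived cells against GMP. Of 12 tested upstream kinases and serum response cofactors, 2 fell and 1 rose in each comparison with GMP, and 3 fell and 1 rose against L-GMP. Without GMP replicate 1 the rise in L-GMP-derived cells against GMP was lost. Rps6ka3, which encodes a kinase downstream of ERK, was lower in both comparisons with GMP, by 1.79-fold and 2.71-fold. Elk3 fell 1.59-fold and Map3k1 rose 1.35-fold in L-GMP against GMP.

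Of 11 tested relatives of the feedback genes, 5 fell and 2 rose in L-GMP against GMP, beside the shares of all tested genes given above. Spred1, an inhibitor of Ras and ERK signalling, read 501, 492 and 496 in GMP, 118, 84.3 and 123 in L-GMP, and 292, 517 and 437 in L-GMP-derived cells. It fell 4.65-fold in L-GMP (adjusted p = 3.85e-05, limma) and was 3.78-fold higher in L-GMP-derived cells than in L-GMP, and on this gene GMP replicate 1 stood with its group. Dusp6, the ERK phosphatase gene, fell at least 3.26-fold in L-GMP and 2.19-fold in L-GMP-derived cells, both against GMP. Zfp36l1 and Zfp36l2, whose products resemble Zfp36, fell at least 3.04-fold in L-GMP and 3.36-fold in L-GMP-derived cells against GMP, respectively. In L-GMP-derived cells 4 of the 11 fell and 1 rose against GMP, and 3 fell and 2 rose against L-GMP, the last counts being 4 and 3 without GMP replicate 1.

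Of 5 tested mRNAs known to be bound by Zfp36, only Cxcl2 passed, at least 10.2-fold lower in L-GMP-derived cells than in GMP (adjusted p = 0.0437, limma), and it was 45.2 on GMP replicate 1. Without that array Cxcl2 and Ccl4, another chemokine gene, were both called lower in L-GMP and in L-GMP-derived cells against GMP. Heat shock genes form another group, some members of which stress induces. In L-GMP 7 of 11 tested fell against GMP and 0 rose, against 12.8% of all tested genes called lower and 13.1% called higher. The shares for the other comparisons are those given above. Hspa1a fell 23.6-fold (adjusted p = 1.75e-04, limma), from 1615, 6518 and 6423 to 315, 89.1 and 182, and Hspa1b, a near-identical copy whose probes may share signal, fell 16.6-fold. The GMP and L-GMP arrays did not overlap for Hspa1a, as they did for all 9 tested members, and the 7 calls were made without GMP replicate 1 as well. The other calls were Hspa5, Hspa8, Hspd1, Hspe1 and Hsph1, and Dnajb1 and Hspb1 were not called. Hspa8 read 8440, 9183 and 8769 in L-GMP, against 9503, 9674 and 9826 in GMP. Hsph1 read 604, 523 and 476, against 1312, 1446 and 1348. In L-GMP-derived cells 3 fell and 1 rose against GMP, and 1 fell and 6 rose against L-GMP, Hsph1 by 3.49-fold. Without GMP replicate 1 the numbers that fell were 4 against GMP, with Hspa5 added, and 2 against L-GMP, with Hspa1a added.

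**Figure D4:**
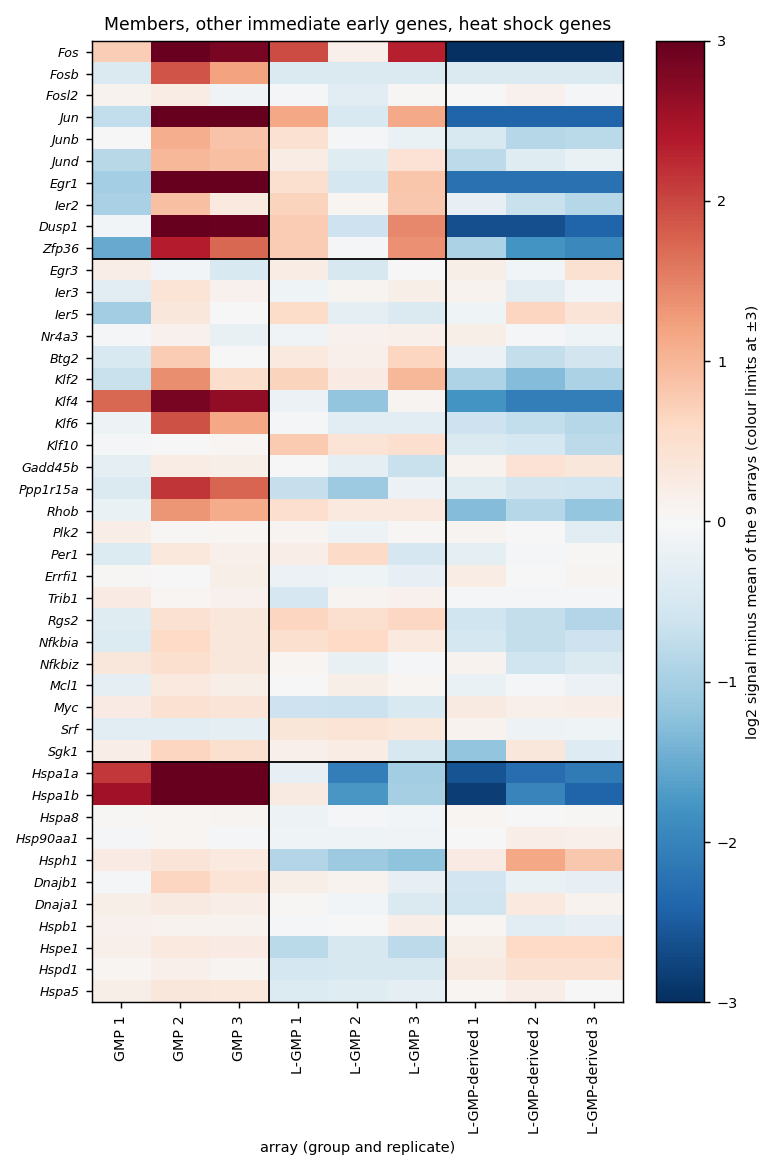
Log2 signal of the 10 immediate early genes (top block), the 23 other tested immediate early genes (middle) and the 11 tested heat shock genes (bottom) on each of the 9 arrays, as the difference from the gene's mean over the 9 arrays, with colour limits at ±3. The low GMP replicate 1 and the low L-GMP-derived arrays can be seen for Fos, Jun, Egr1, Dusp1 and Zfp36, and only some of the other genes share either.

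Of all pairs of tested members, Jun with Dusp1 and Jun with Egr1 had the closest profiles, and Ier2 with Jund followed (0.44). Likeness was measured as the root mean square difference of centred log2 signals over the 9 arrays, among all 8959 tested genes, where 0 means identical profiles. Signals were not scaled, so genes that vary little between arrays also give small values. The nearest gene to Jun was Dusp1 (0.30), then Egr1 (0.35) and Zfp36 (0.82), and the nearest to Egr1 were Jun (0.35), Dusp1 (0.48) and Zfp36 (0.88). Fos was nearest to Hdc (0.86), Dusp1 (0.89) and Jun (1.02). Hdc, the gene of the histamine-forming enzyme, read 2000.4, 2480.1 and 2335 in GMP, 1112, 1182 and 1577 in L-GMP and 94.0, 20.2 and 31.4 in L-GMP-derived cells, without the low GMP replicate 1 of Fos. Junb was nearest to Necap1 (0.23), Phc1 (0.24) and Ift140 (0.27), and Jund to Pdgfra (0.36), Oit1 (0.36) and Il2rb (0.37). These values describe the 9 arrays, which share groups and the floor, and floored signals make the profiles of Fos, Jun and Egr1 alike on the L-GMP-derived arrays.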

How the data were processed

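RNA from 9 samples was measured on Affymetrix mouse arrays. The authors deposited a table of linear intensity values, 1 signal for each of 22690 probe sets and array, made with MAS5 version 5 per the submitters' processing notes. Background, summary method and target of scaling: not given in the sources used here. Among 204210 values 1917 (0.939%) are negative, down to -1890.55. Negative values do not arise in the MAS5 signal algorithm, and which summary method made them is not known. Trimmed array means lay within 4.02% of their mean, so the authors' scaling was kept.

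Signals below the 25th percentile (62.4) were set to it and log2 was taken, which understates the folds of dim genes. The test took in 14578 probe sets that exceeded the 40th percentile (111) on 3 or more of 9 arrays, leaving aside 64 controls. Gene names came from the platform annotation: 20393 probe sets had 1 symbol, 691 several and 1606 none, and those with 1 were named. Each gene is represented by the probe set with the highest mean log2 signal. Differences were tested two-sided with limma 3.58.1 (lmFit, then contrasts.fit and eBayes with a trend on intensity) under R 4.3.3, on all 9 arrays with 6 residual degrees of freedom. Benjamini-Hochberg adjustment ran over all tested probe sets, with a threshold of 0.05. The fit was tested on simulated data.

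The member genes and all gene lists were chosen with earlier results of these data known. Named genes were all members, up to 3 genes past the threshold with the largest change in each list and comparison, and the 3 genes of most like profile to Fos, Jun, Junb, Jund and Egr1. Other scalings, floors and filters, array weights, only the 6 arrays compared, averaged probe sets, a replicate block, and leaving out each array in turn served as alternatives.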

Additional observations from a re-analysis of the deposited data

How the results depend on the processing

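Each result was recomputed under 20 alternatives, of which 1, leaving out GMP replicate 1 together with L-GMP-derived replicate 1, was chosen after seeing the data. Of 540 recomputed differences of single immediate early genes, 462 kept their direction and their side of the threshold, 59 passed it anew, 10 lost it and 9 turned sign. The falls of Fos, Jun, Junb and Dusp1 against GMP and of Fos against L-GMP in L-GMP-derived cells passed under all 20. The 9 turned values were of differences not called to begin with. On the log2 scale Jund in L-GMP against GMP became 0.066 without GMP replicate 2 and 0.022 without replicate 3, and ranged from -0.85 to 0.066 over the omissions. Zfp36 became 0.59, 0.27 and 0.21 without GMP replicate 2, GMP replicate 3 and L-GMP replicate 2, and ranged from -1.34 to 0.59. Ier2 became -0.078 without GMP replicate 1, alone or with L-GMP-derived replicate 1, and ranged up to 0.86. Fosl2 in L-GMP-derived cells against GMP became 0.034 without GMP replicate 2 and ranged from -0.14. The call of Egr1 against GMP was lost without the filter on dim probe sets (adjusted p = 0.068, limma), as were those of Jun (0.114) and Dusp1 (0.0727) against L-GMP. The cause was not tested. Jun was also lost when its probe sets were averaged (0.0822) and when the floor was the 40th percentile (0.0908).

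The number of the 9 tested immediate early genes called lower was 0, 5 and 3 in L-GMP against GMP, L-GMP-derived against GMP and L-GMP-derived against L-GMP. It was 3, 8 and 7 with weights per array, and 6, 8 and 7 without GMP replicate 1 and L-GMP-derived replicate 1. It was 1 in the last comparison without the filter and 7 with only the 6 arrays compared. Without single arrays it ranged from 0 to 6, from 4 to 8 and from 2 to 7. Over all tested genes, weights per array gave 1728 and 1930 lower genes in the comparisons with GMP, against 1148 and 954, and 2292 higher in L-GMP-derived cells, against 1199, again with the cause not tested. Without single arrays, lower genes ranged from 737 to 1523 in L-GMP against GMP, from 630 to 1099 in L-GMP-derived against GMP and from 1002 to 1518 against L-GMP, and higher genes from 814 to 1515, from 777 to 1612 and from 1098 to 1904. The counts of 737, 630 and 777 came without GMP replicate 3.

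The replicate numbers did not pair the arrays: correlations of same-numbered arrays' deviations ran from -0.31 to 0.17 over 7 pairs, and 1 of 8 numbered arrays correlated best with its own number. With the replicate block, in which GMP replicate 1 has a level of its own and so drops out, 4, 8 and 7 immediate early genes were lower and Ier2 in L-GMP against GMP was -0.20. Over all genes the block gave 554 lower and 626 higher in L-GMP against GMP, and 526 lower and 533 higher in L-GMP-derived cells against GMP. No detection calls were used, so brightness over the floor is the only measure of presence, and differences under it could not be seen.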
